A study of Sus scrofa with 32 samples.

Results

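The genes described here are the RNA splicing factors measured in arteries and coronary fat of juvenile Ossabaw pigs. They are 94 gene symbols on 138 probe sets, out of 8390 gene symbols named in the deposited table, and were chosen by name alone, as symbols that begin with SRSF or SFRS, SNRP, HNRNP, SF3A, SF3B, PRPF, U2AF, LSM with a number or RBM with a number. Where a symbol had several probe sets, the one brightest on average stands for it. Symbols are those of the human annotation deposited with the table; GEO's platform annotation gave the same symbol for 72 of the 94, another symbol for 1 (SF3B14, now SF3B6) and none for 21.

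The pigs were 22 weeks old and had eaten their diets for 16 weeks. The obese group (n = 5 pigs) received a diet high in fat, in cholesterol and in high fructose corn syrup, and the lean group (n = 6 pigs) a commercial low fat diet. No transgene, gene deletion or drug was given to either group. From each pig the fat around the left anterior descending coronary artery (PVAT), that artery itself (LAD) and the descending thoracic aorta (TA) were put on one Affymetrix pig array each, except for 1 lean pig with no aorta array, which gives 32 arrays. All arteries had been cleaned of fat and loose adventitia. RNA was extracted with one kit from the arteries and with another from the fat, so kit and tissue cannot be told apart in a comparison with PVAT.

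Splicing removes introns from newly made transcripts. The spliceosome is built from small nuclear ribonucleoproteins (snRNPs): most of their RNAs carry a ring of Sm proteins, made by the SNRP genes, and one carries a related ring of LSM proteins, while the SF3A and SF3B complexes and the U2AF heterodimer recognise the branch point and the 3′ splice site. SR proteins (SRSF genes) mostly promote and hnRNPs often repress the use of nearby exons, PRPF proteins assemble and remodel the spliceosome, and RBM proteins are a loose collection of RNA-binding proteins, some of which steer muscle-specific exons.

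Of the 94 genes, 88 passed the filter, which dropped the dimmest 30% of probe sets; LSM12, PRPF40B, RBM19, RBM20, RBM47 and RBM4B did not and are given as levels only. All levels are the deposited log2 signals, and differences are on the log2 scale, so that 1 unit is a doubling. The 88 comprised 9 SR proteins, 16 hnRNPs, 11 Sm and other snRNP proteins, 8 LSM proteins, 11 proteins of the SF3A, SF3B and U2AF complexes, 10 PRPF proteins and 23 RBM proteins. A gene is said to have risen, fallen or changed where the Benjamini-Hochberg adjusted p of limma, over all 10029 tested probe sets, was under 0.05.

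The tested splicing factors varied less in these tissues than the tested probe sets as a whole. Their standard deviation within a group had a median of 0.155 (range 0.0778 to 0.470), against 0.243 over all tested probe sets. The distance between their highest and lowest tissue mean had a median of 0.220 and reached 0.691, whereas over all tested probe sets the median was 0.393 and the largest 7.78. By family, that median distance ran from 0.182 for the SR proteins to 0.302 for the Sm and snRNP proteins. In samples of whole tissue, fewer cells of a type and less RNA per cell cannot be told apart.

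Several features of the samples move with tissue or diet. The mean signal of 13 cardiomyocyte markers ranged from 9.41 to 12.75 in obese and 6.74 to 12.62 in lean PVAT, from 8.20 to 12.04 in obese and 8.63 to 12.65 in lean LAD, and from 6.49 to 7.74 in obese and 7.62 to 7.91 in lean TA. Adipocyte markers (6 of 10 listed were measured, 4 were tested) all rose in PVAT against both arteries. Of 8 tested macrophage markers, 1 rose in obese against lean LAD, with a median difference of 1.62. The 28S/18S ratio of the ribosomal RNAs, a sign of RNA integrity, averaged 0.878 in obese and 1.02 in lean PVAT, 1.09 in obese and 1.30 in lean LAD, and 1.18 in obese and 1.38 in lean TA, and 2 obese arrays but no lean array of each tissue had a ratio under 0.8. Pig 57's aorta, from the obese group, gave an unusual array, with 2632 tested probe sets more than 1 log2 unit from the median of the other aortas, where no other array had more than 432. The part of these features in the results below was not tested beyond the values given beside them.

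The first question is whether the obesogenic diet altered splicing factor levels in any of the 3 tissues. No splicing factor passed the test in PVAT, LAD or TA (0 of 88 in each, limma), where 0%, 0.0399% and 0% of all tested probe sets passed. That background moved with single pigs: the 4 probe sets of LAD became 102 without obese pig 57 and 106 without obese pig 81, with 0 or 1 without any other pig, and the 0 of TA became 29 without obese pig 57. The smallest adjusted p among the 88 was 0.999 in PVAT, 0.147 in LAD and 0.606 in TA. Without adjustment, 1 gene in PVAT, 10 in LAD and 1 in TA had a p under 0.05, where 2.2%, 17.2% and 7.18% of all tested probe sets did. Most differences were small: 86, 79 and 75 of the 88 were under 0.2 in size in PVAT, LAD and TA.

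In LAD, 75 of the 88 splicing factors (85.2%) had a lower mean in obese than in lean pigs, against 65.7% of all tested probe sets. Their median difference was -0.081, beside -0.058 for all tested probe sets. All 10 genes with an unadjusted p under 0.05 were lower in obese LAD, which is 11.4% of the members and 11.7% of all tested probe sets in that direction. By sacrifice date, the members' median difference was -0.10, -0.12 and -0.025, the second from 1 obese and 1 lean pig. The share below 0 in LAD moved with the scaling: after quantile normalisation 60 of the 88 were below 0. Under that scaling the median over all tested probe sets was -0.030, beside -0.058 as deposited.

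In 3 of the 88 genes (3.41%) every obese LAD array lay below every lean one, against 1.43% of all tested probe sets. RBM48, a protein of the minor spliceosome, had 8.63, 8.63, 8.69, 8.78 and 8.73 in obese LAD, against 8.83 to 9.08 (median 8.94) in lean LAD. The difference was -0.26 (SE 0.067, adjusted p = 0.147). SF3A1, a subunit of the SF3A complex of the U2 snRNP, had 9.83, 9.87, 9.88, 9.99 and 9.97 in obese LAD, against 10.03 to 10.21 (median 10.11) in lean LAD. The obese values ended just short of the lean ones, and the difference was -0.20 (SE 0.056, adjusted p = 0.172). SNRPE, a member of the Sm ring, had 11.84, 11.67, 11.80, 11.80 and 11.77 in obese LAD, against 11.88 to 11.93 (median 11.92) in lean LAD, a difference of -0.14 (SE 0.050, adjusted p = 0.219). All 3 missed the threshold.

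PRPF38A, which joins the spliceosome before its activation, and HNRNPH3, which binds guanine-rich RNA, had the next largest test statistics towards lower levels in obese LAD, with differences of -0.30 (SE 0.10, adjusted p = 0.209) and -0.23 (SE 0.086, adjusted p = 0.235). Towards higher levels in obese LAD the leading genes were LSM4, of the LSM ring, at 0.19 (SE 0.11, adjusted p = 0.389), and LSM10, of the U7 snRNP that processes histone transcripts, at 0.11 (SE 0.082, adjusted p = 0.493). HNRNPA2B1 (0.055), HNRNPC (0.048) and SRSF1 (0.052), an hnRNP pair and a founding SR protein, followed with adjusted p-values of 0.632, 0.743 and 0.748. HNRNPA2B1 and SRSF1 took the opposite sign with the dimmest tested probe set of the same gene, so no direction can be given for them.

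In PVAT the differences were balanced around 0: 39 of the 88 were below 0 (44.3%), against 49.8% of all tested probe sets, and the median was 0.011, beside 9.7e-04. RBM15, which guides RNA methylation and nuclear export, was the 1 gene with an unadjusted p under 0.05 there. It had 9.20, 9.10, 8.91, 8.83 and 9.07 in obese PVAT, against 8.48 to 9.04 (median 8.79) in lean PVAT. The ranges overlapped, and the difference was 0.25 (SE 0.11, adjusted p = 0.999). LSM5 (0.10), RBM12B (0.11) and SRSF7 (0.098) had large statistics towards higher levels in obese PVAT. Towards lower levels, the snRNP proteins SNRPA (-0.14), SNRPF (-0.17) and SNRPD3 (-0.10), the SF3A subunit SF3A3 (-0.084) and RBM3 (-0.20), a cold-inducible RNA-binding protein, had the largest statistics. None of these 8 had an adjusted p below 0.999.

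In TA, 57 of the 88 were below 0 (64.8%), against 55.4% of all tested probe sets, with a median of -0.059 beside -0.029. The median became 0.0058 when the 2 obese arrays with a 28S/18S ratio under 0.8 were left out. PRPF38A was the 1 gene with an unadjusted p under 0.05. It had 9.26, 9.31, 8.90, 9.06 and 9.01 in obese TA, against 9.43, 9.45, 9.38, 9.32 and 9.45 in lean TA. HNRNPA0, a small hnRNP that binds AU-rich RNA, had 11.78, 11.83, 11.29, 11.81 and 11.73 in obese TA, against 11.94, 11.90, 11.94, 11.93 and 11.87 in lean TA. In both genes every obese array lay below every lean array, which 2 of 88 members (2.27%) and 1.6% of all tested probe sets did. Their differences were -0.30 (SE 0.099, adjusted p = 0.606) and -0.23 (SE 0.11, adjusted p = 0.69). The lowest value of PRPF38A and that of HNRNPA0 both came from pig 57.

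Other genes with large statistics in TA were RBM22 (-0.25), RBM48 (-0.28) and HNRNPH3 (-0.33) towards lower levels in obese pigs. PRPF38B (0.17), PRPF31 (0.11), RBM14 (0.28) and HNRNPC (0.10) had large statistics in the other direction.

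**Figure D1:**
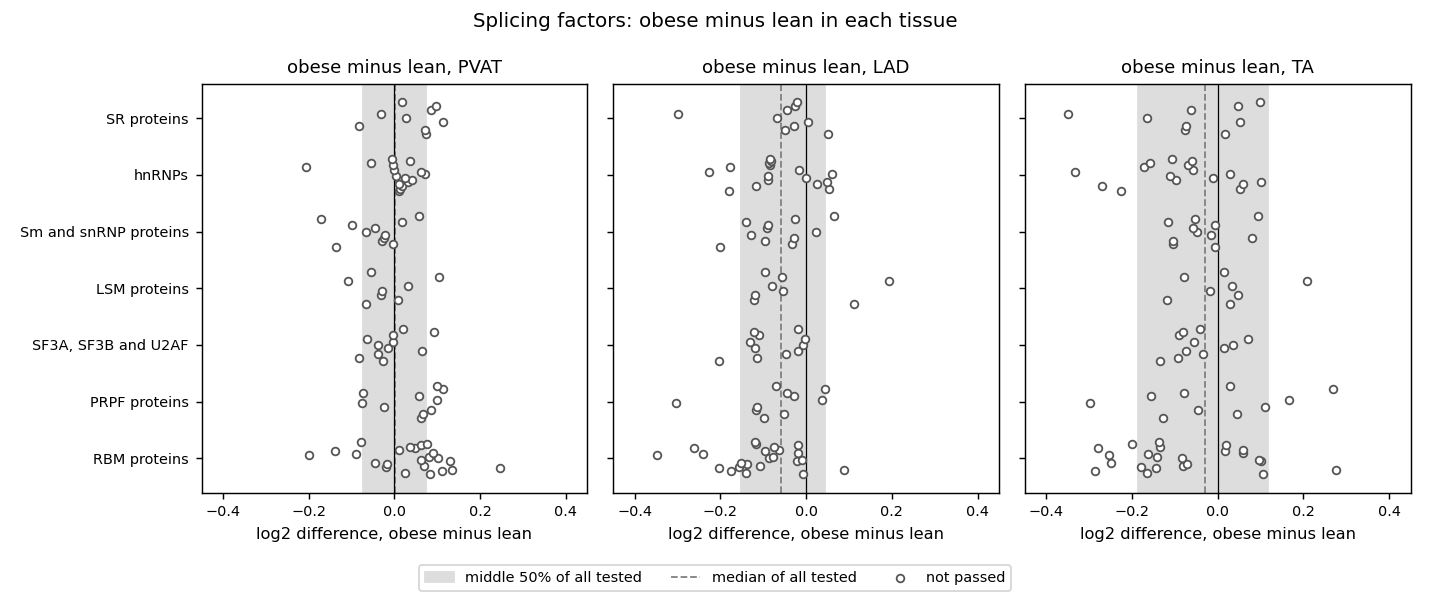
Log2 difference, obese minus lean, of the 88 tested splicing factors in PVAT, LAD and TA, with 1 point per gene in rows by family. The grey band holds the middle 50% of all 10029 tested probe sets, the dashed line is their median and the solid line is 0. All points are open because none passed the test, and in LAD 75 of the 88 lie below 0.

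Whether the diet difference itself differed between tissues was tested in a fit of all 6 groups. No splicing factor passed for LAD against TA, PVAT against LAD or PVAT against TA (0 of 88 each, limma; 0% of all tested probe sets each), and 1, 2 and 4 had an unadjusted p under 0.05, beside 2.26%, 2.91% and 4.92% of all tested probe sets. RBM15 and RBM48 had the largest statistics towards a higher diet difference in PVAT than in LAD, 0.45 (SE 0.17, adjusted p = 1) and 0.31 (SE 0.13, adjusted p = 1), and also than in TA, 0.39 (SE 0.17, adjusted p = 0.854) and 0.33 (SE 0.13, adjusted p = 0.854). PRPF3 (0.20), PRPF38A (0.23) and U2AF1L4 (0.21) followed against LAD, and HNRNPH3 (0.39), RBM12B (0.39) and HNRNPA3 (0.29) against TA. Towards a lower diet difference in PVAT, LSM10 (-0.18), LSM4 (-0.30), SNRPF (-0.15), SNRPD1 (-0.089) and HNRNPA2B1 (-0.043) led against LAD, and PRPF31 (-0.13), LSM4 (-0.32), SNRPA (-0.13) and SNRPB2 (-0.11) against TA. For LAD minus TA, the leading differences in diet effect were above 0 for HNRNPA3 (0.15), RBM22 (0.097), SRSF4 (0.099), PRPF39 (0.13) and LSM10 (0.082), and below 0 for PRPF31 (-0.22), SNRPA (-0.19), LSM14B (-0.17) and SF3B2 (-0.13). These are values without a call, and several turned sign without pig 57 or pig 51 or under another alternative. The 161 other splicing genes listed for comparison (spliceosome subunits, exon junction proteins, SR protein kinases, snRNP assembly factors and regulators) were of the same kind: 119 were tested and none passed for diet in any tissue (limma), with a smallest adjusted p of 0.999 in PVAT, 0.124 in LAD and 0.603 in TA.

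The second question is how the tissues differ. Between the arteries, 15 of the 88 splicing factors changed (17.0%), against 24.5% of all tested probe sets. RBM18 rose in LAD (1.14%, against 14.4%) and 14 genes fell (15.9%, against 10.1%). The Sm and snRNP proteins held 6 of these 14: SNRPG, SNRPD1, SNRPD2, SNRPA, SNRPB2 and SNRPC fell in LAD, and all 11 measured had a difference below 0 (median -0.21), while over all tested probe sets the median was 0.014 and 47.4% were below 0. The LSM proteins held another 4, LSM4, LSM2, LSM5 and LSM14B. The changes were small: the largest was 1.33-fold, and 10 of the 15 were under 1.2-fold.

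The Sm ring is the heptamer that encircles each spliceosomal snRNA other than U6. SNRPG had a log2 signal of 10.67 to 10.98 (median 10.75) in PVAT, 10.27 to 10.75 (median 10.51) in LAD and 10.60 to 11.41 (median 10.87) in TA. It was lower in LAD than in TA in 10 of 10 pigs, with a difference of -0.41 (SE 0.080, adjusted p = 0.000251), and the ranges of the arteries overlapped. SNRPD2 had 11.71 to 12.16 (median 12.02) in PVAT, 11.55 to 11.86 (median 11.77) in LAD and 11.91 to 12.20 (median 12.04) in TA. Every LAD array was below every TA array for SNRPD2, a difference of -0.31 (SE 0.053, adjusted p = 5.62e-05) that ran from -0.37 to -0.26 over the 3 sacrifice dates. SNRPD1 had 9.78 to 10.59 (median 10.27) in PVAT, 9.81 to 10.36 (median 10.04) in LAD and 10.05 to 11.04 (median 10.46) in TA, with overlapping ranges. Its difference between the arteries was -0.38 (SE 0.10, adjusted p = 0.00455), in the same direction in 10 of 10 pigs.

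The other 4 ring proteins, SNRPB (-0.21), SNRPD3 (-0.089), SNRPE (-0.14) and SNRPF (-0.15), did not pass between the arteries, with adjusted p-values of 0.0865, 0.588, 0.057 and 0.237. Of the proteins found on a single kind of snRNP, the U1 proteins SNRPA and SNRPC fell in LAD, with differences of -0.27 (SE 0.062, adjusted p = 0.00147) and -0.21 (SE 0.050, adjusted p = 0.00174). The U2 protein SNRPB2 fell too, with a difference of -0.22 (SE 0.056, adjusted p = 0.00303), whereas its U2 partner SNRPA1 had -0.010 (SE 0.066, adjusted p = 0.94).

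**Figure D2:**
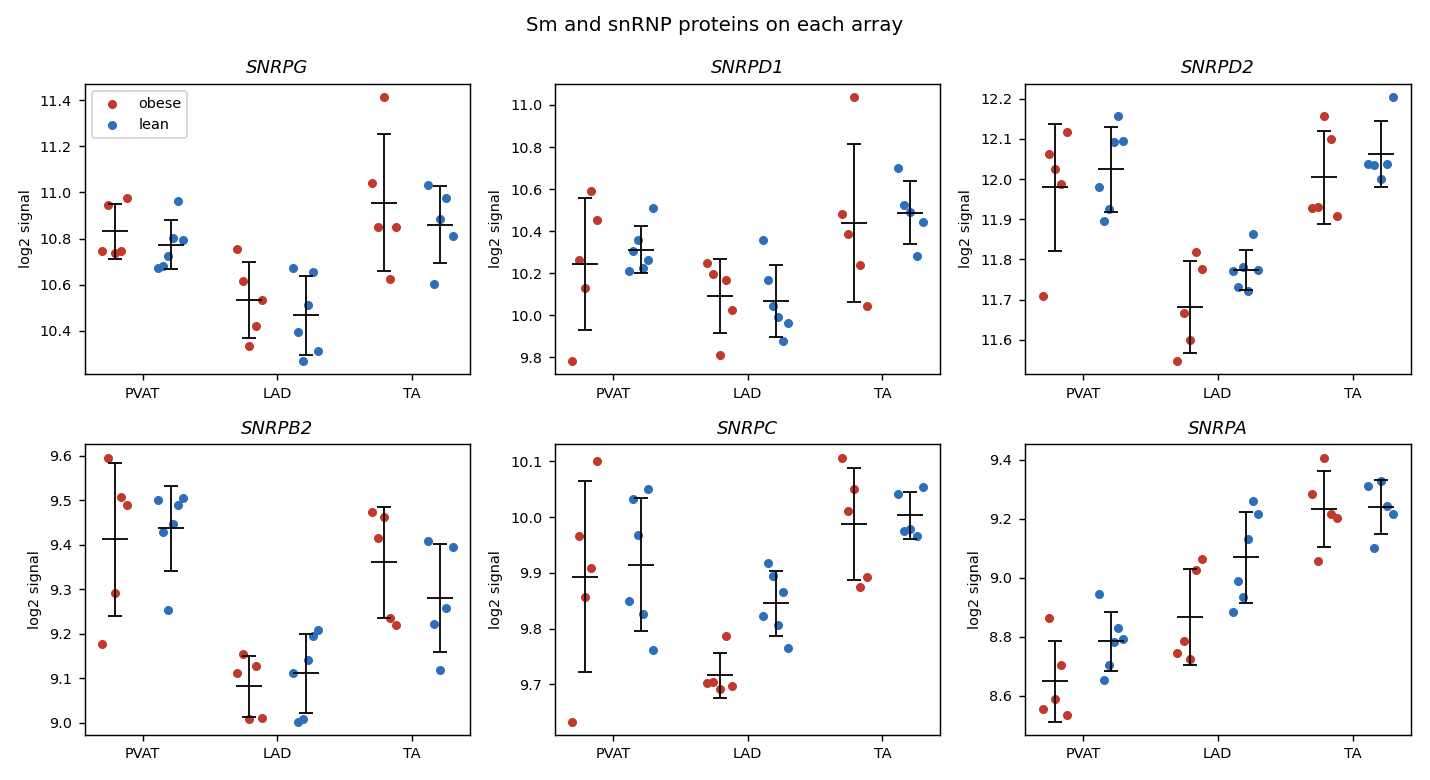
Log2 signal of 6 Sm and snRNP proteins on every array, in PVAT, LAD and TA, with obese pigs in red to the left of lean pigs in blue; bars give the mean and SD of each group. LAD means lie below TA means in all 6 panels, and SNRPD2 separates LAD from TA completely.

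Among the LSM proteins, LSM4 had the largest difference between LAD and TA, -0.39 (SE 0.14, adjusted p = 0.0368), and also one of the widest spreads within groups (SD 0.319). LSM2, LSM5 and LSM14B fell by smaller amounts in LAD, -0.21, -0.17 and -0.16. LSM14B belongs to the branch that binds messenger RNA in the cytoplasm rather than to the ring. The LSM calls hung on single pigs: 0 of the 4 passed without pig 48, 57, 63 or 86.

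SRSF7, an SR protein with a zinc knuckle, fell in LAD, with a difference of -0.22 (SE 0.073, adjusted p = 0.0244), as did SRSF11, at -0.20 (SE 0.075, adjusted p = 0.0454), HNRNPA0, at -0.21 (SE 0.061, adjusted p = 0.0107) and PRPF4, of the U4/U6 snRNP, at -0.21 (SE 0.062, adjusted p = 0.0111). The 11 SF3A, SF3B and U2AF proteins had differences from -0.17 to 0.096 between the arteries and none of the 11 had an adjusted p under 0.05. RBM18 was 9.52 to 9.95 (median 9.69) in LAD and 9.26 to 9.68 (median 9.53) in TA, higher in LAD in 10 of 10 pigs, by 0.18 (SE 0.054, adjusted p = 0.0121). The count of 15 depended on how the samples were treated. It was 6 with the cardiomyocyte marker mean as a covariate, of which 4 were among the 15, and 9 without lean pig 86. Over all 10029 tested probe sets, the 2458 calls became 1834 and 2049 under the same alternatives. Of the 13 cardiomyocyte markers themselves, 10 rose and 1 fell in LAD against TA (median 2.80).

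Perivascular fat differed from the coronary artery it surrounds in 41 of 88 splicing factors (46.6%), against 56.6% of all tested probe sets. In PVAT 13 rose (14.8%, against 24.2%) and 28 fell (31.8%, against 32.4%). By family, 5 of 11 Sm and snRNP proteins rose and 2 fell, 2 of 9 SR proteins rose and none fell, 6 of 16 hnRNPs fell and none rose, and 10 of 23 RBM proteins fell and 3 rose. A difference between families was not tested, and the SR count ran from 0 to 6 over the alternatives. The split of 13 and 28 moved with the scaling, to 23 and 26 after quantile normalisation and 18 and 25 after centring each array on its median. Over all tested probe sets the median moved as well, from -0.044 to -0.015 and -0.020, and the 5677 calls became 5791 and 5709. None of the 41 changes reached 1.5-fold.

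SF3B4, a subunit of the SF3B complex that holds the branch point, had the largest fall. Its log2 signal was 7.81 to 8.22 (median 8.05) in PVAT, 8.44 to 8.83 (median 8.66) in LAD and 8.62 to 8.91 (median 8.71) in TA. No PVAT array reached the lowest array of either artery, and SF3B4 was 1.49-fold lower than in LAD, -0.58 (SE 0.055, adjusted p = 1.06e-09), and 1.61-fold lower than in TA, -0.69 (SE 0.056, adjusted p = 2.94e-11). SF3B1, the scaffold of the same complex, had 11.19 to 11.70 (median 11.35) in PVAT, 10.83 to 11.13 (median 10.90) in LAD and 10.81 to 11.38 (median 10.998) in TA. It went the other way: all PVAT arrays were above all LAD arrays, 0.47 (SE 0.068, adjusted p = 1.51e-06), and it rose against TA as well, 0.36 (SE 0.070, adjusted p = 6.57e-05), where the ranges overlapped.

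Within the SF3B complex, SF3B2 fell like SF3B4, with differences of -0.33 (SE 0.051, adjusted p = 3.67e-06) against LAD and -0.35 (SE 0.052, adjusted p = 1.56e-06) against TA. SF3B3 fell against TA, -0.17 (SE 0.061, adjusted p = 0.0172), and had -0.088 (SE 0.060, adjusted p = 0.21) against LAD. SF3B5 and SF3B14 passed neither comparison. Both measured SF3A subunits fell in PVAT: SF3A1 had -0.29 (SE 0.065, adjusted p = 0.000398) against LAD and -0.33 (SE 0.067, adjusted p = 9.77e-05) against TA, and SF3A3 had -0.15 and -0.22. U2AF1, the small U2AF subunit, was level, at 11.02 to 11.37 (median 11.16) in PVAT, 11.02 to 11.25 (median 11.10) in LAD and 10.95 to 11.30 (median 11.26) in TA. U2AF2, the large subunit, rose against TA, 0.20 (SE 0.071, adjusted p = 0.0166), in 6 of 10 pigs; against LAD it had 0.13 (SE 0.070, adjusted p = 0.123).

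The Sm ring was split in the same manner. SNRPB, which makes the SmB protein, had 9.40 to 9.96 (median 9.69) in PVAT, 9.999 to 10.29 (median 10.15) in LAD and 9.87 to 10.87 (median 10.39) in TA. It fell in PVAT in every pig, with differences of -0.45 (SE 0.088, adjusted p = 9.48e-05) against LAD and -0.66 (SE 0.090, adjusted p = 3.98e-07) against TA. SNRPG, SNRPD2 and SNRPE rose in PVAT against LAD, by 0.30 (SE 0.078, adjusted p = 0.00174), 0.27 (SE 0.052, adjusted p = 6.13e-05) and 0.23 (SE 0.051, adjusted p = 0.000333), and none of these 3 passed against TA, with differences of -0.11, -0.032 and 0.097. Among the snRNP-specific proteins, SNRPB2 and SNRPC rose against LAD, by 0.33 and 0.12, and SNRPA fell against both arteries, with differences of -0.25 (SE 0.060, adjusted p = 0.000846) against LAD and -0.52 (SE 0.062, adjusted p = 3.83e-08) against TA.

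LSM3, of the LSM ring on U6 RNA, had 10.05 to 10.70 (median 10.36) in PVAT, 9.81 to 10.18 (median 9.95) in LAD and 9.73 to 10.12 (median 9.92) in TA. It rose in PVAT by 0.42 (SE 0.069, adjusted p = 9.6e-06) against LAD, in 11 of 11 pigs, and by 0.44 (SE 0.070, adjusted p = 4.35e-06) against TA. LSM2, its partner in the ring, fell in PVAT against both arteries, with differences of -0.25 (SE 0.072, adjusted p = 0.00402) and -0.47 (SE 0.074, adjusted p = 4.25e-06), and LSM5 had 0.12 and -0.044, without passing either test. LSM4, LSM7, LSM14A and LSM14B also fell against TA, and of these LSM14A fell against LAD.

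SRSF11, an SR-related protein that binds U2AF, had 10.95 to 11.55 (median 11.27) in PVAT, 10.65 to 10.99 (median 10.83) in LAD and 10.80 to 11.24 (median 10.99) in TA. It rose in PVAT against LAD by 0.47 (SE 0.073, adjusted p = 5.01e-06) and against TA by 0.26 (SE 0.075, adjusted p = 0.00375). All 4 tested SRSF11 probe sets were above 0 in both comparisons, and 3 of them passed against LAD. SRSF6 rose against LAD by 0.16 (SE 0.056, adjusted p = 0.0188), but its probe sets disagreed: against TA one was at 0.32 (adjusted p = 0.0335) and another at -0.21 (adjusted p = 0.0124), and the probe set that the platform annotation calls SRSF6 was at -0.75 against LAD. SRSF3 fell against TA, -0.23 (SE 0.065, adjusted p = 0.00389). SRSF1, the best studied SR protein, had 0.14 (SE 0.070, adjusted p = 0.08) against LAD and 0.063 (SE 0.072, adjusted p = 0.464) against TA.

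**Figure D3:**
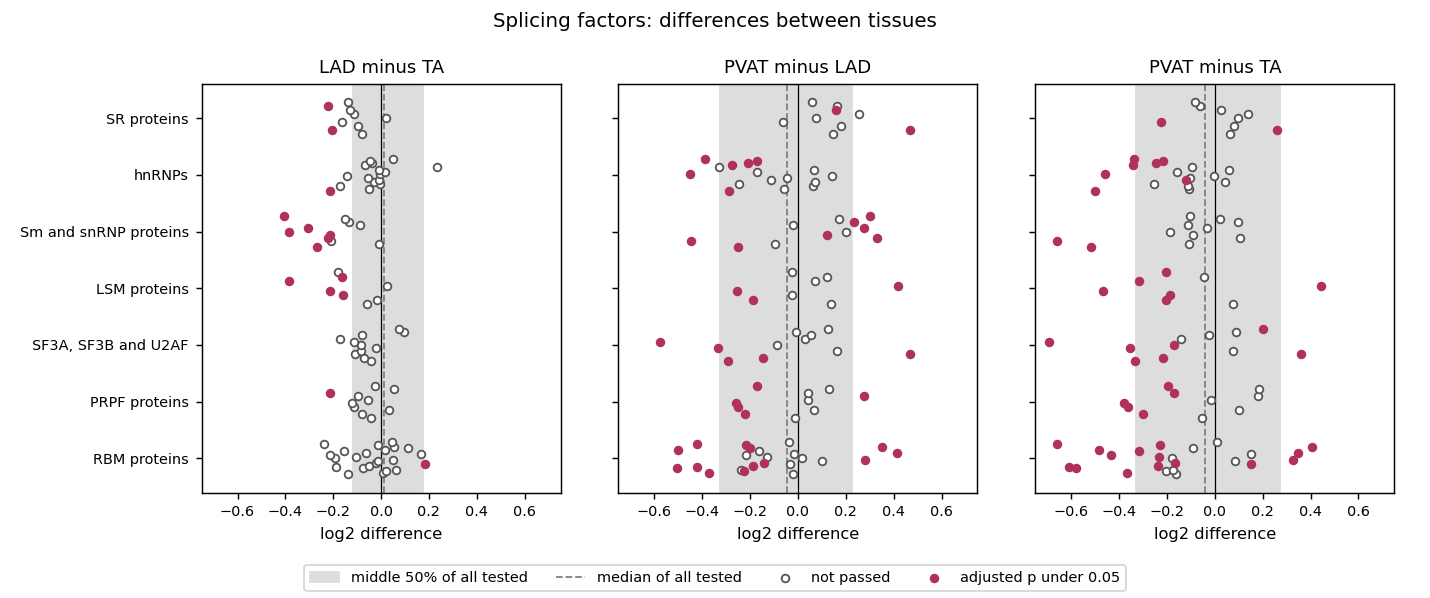
Log2 differences of the 88 tested splicing factors between tissues, with 1 point per gene in rows by family; filled points had an adjusted p under 0.05. The grey band holds the middle 50% of all 10029 tested probe sets and the dashed line is their median. All 11 Sm and snRNP proteins lie below 0 in LAD minus TA, and filled points lie on both sides of 0 in both comparisons with PVAT.

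With the brightest probe set of each gene, the hnRNPs that changed in PVAT all fell. HNRNPUL1, which works in transcription and the DNA damage response as well as RNA processing, had 10.41 to 10.65 (median 10.51) in PVAT, 10.74 to 11.02 (median 10.91) in LAD and 10.68 to 11.02 (median 10.84) in TA. No PVAT array overlapped an artery, and the differences were -0.39 (SE 0.042, adjusted p = 1.24e-08) against LAD and -0.34 (SE 0.043, adjusted p = 1.26e-07) against TA. HNRNPH2, a binder of guanine-rich RNA, fell with differences of -0.45 (SE 0.079, adjusted p = 2.21e-05) and -0.46 (SE 0.081, adjusted p = 2.06e-05), and HNRNPA0 fell with differences of -0.29 (SE 0.060, adjusted p = 0.000179) and -0.50 (SE 0.061, adjusted p = 6.56e-08). HNRNPM, HNRNPR and HNRNPU fell against both arteries, and HNRNPD against TA, where 7 of 16 fell and none rose. Of all tested probe sets, 32.9% fell and 26.9% rose in that comparison. Against TA, HNRNPA2B1, HNRNPA3 and HNRNPH1 passed with their dimmest tested probe sets but not with their brightest. HNRNPA2B1, one of the core hnRNPs, had -0.058 (SE 0.054, adjusted p = 0.374) against LAD with its brightest probe set, whereas its other 2 tested probe sets were at 0.59 and 0.56, and both of those passed.

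Among the RBM proteins, RBM15 and its paralog RBM15B both fell in PVAT. RBM15 had 8.48 to 9.20 (median 8.91) in PVAT, 9.16 to 9.82 (median 9.37) in LAD and 9.25 to 9.73 (median 9.53) in TA, a difference of -0.50 (SE 0.084, adjusted p = 1.16e-05) against LAD. RBM15B fell, with differences of -0.42 (SE 0.069, adjusted p = 9.4e-06) against LAD and -0.61 (SE 0.071, adjusted p = 2.68e-08) against TA. RBM42 had 8.89 to 9.31 (median 9.17) in PVAT, 9.52 to 9.80 (median 9.65) in LAD and 9.41 to 9.82 (median 9.62) in TA, with PVAT below both arteries on every array, and its second probe set gave -0.48 against LAD beside -0.50. RBM7, a subunit of the complex that targets nuclear RNA for decay, fell with differences of -0.42 (SE 0.092, adjusted p = 0.000337) against LAD and -0.66 (SE 0.094, adjusted p = 8.45e-07) against TA. RBM12 fell, with differences of -0.37 and -0.37, and RBM3 fell against TA, -0.43 (SE 0.14, adjusted p = 0.00806), with -0.22 (SE 0.13, adjusted p = 0.166) against LAD. RBM3 had 10.74 to 12.03 (median 11.22) in PVAT and 11.11 to 12.15 (median 11.59) in TA.

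RBM39, a U2AF-like factor, RBM5, a regulator of exons of apoptosis genes, and RBM25, which acts through the U1 snRNP, rose in PVAT. RBM39 had 10.78 to 11.27 (median 11.11) in PVAT, 10.46 to 10.91 (median 10.74) in LAD and 10.37 to 11.12 (median 10.78) in TA. It rose by 0.41 (SE 0.073, adjusted p = 2.53e-05) against LAD, and its other probe sets gave 0.22 and 0.070; against TA it had 0.35 (SE 0.074, adjusted p = 0.000234) and the others 0.065 and -0.12, neither of which passed. RBM5 rose by 0.35 (SE 0.10, adjusted p = 0.00391) against LAD and 0.40 (SE 0.10, adjusted p = 0.00129) against TA. Over the alternatives, RBM5 ran from 0.16 to 0.45 and from 0.14 to 0.56, and 1 of 27 lost each call. RBM25 rose by 0.28 (SE 0.11, adjusted p = 0.0385) and 0.33 (SE 0.12, adjusted p = 0.0168). RBM18 rose against TA, with 9.49 to 9.83 (median 9.68) in PVAT and 9.26 to 9.68 (median 9.53) in TA. That RBM18 call was lost under 6 of 27 alternatives. Of the PRPF proteins, PRPF39, a partner of the U1 snRNP, rose against LAD, 0.28 (SE 0.095, adjusted p = 0.0146), while PRPF38A, PRPF31, PRPF19 and PRPF4B fell against both arteries.

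**Figure D4:**
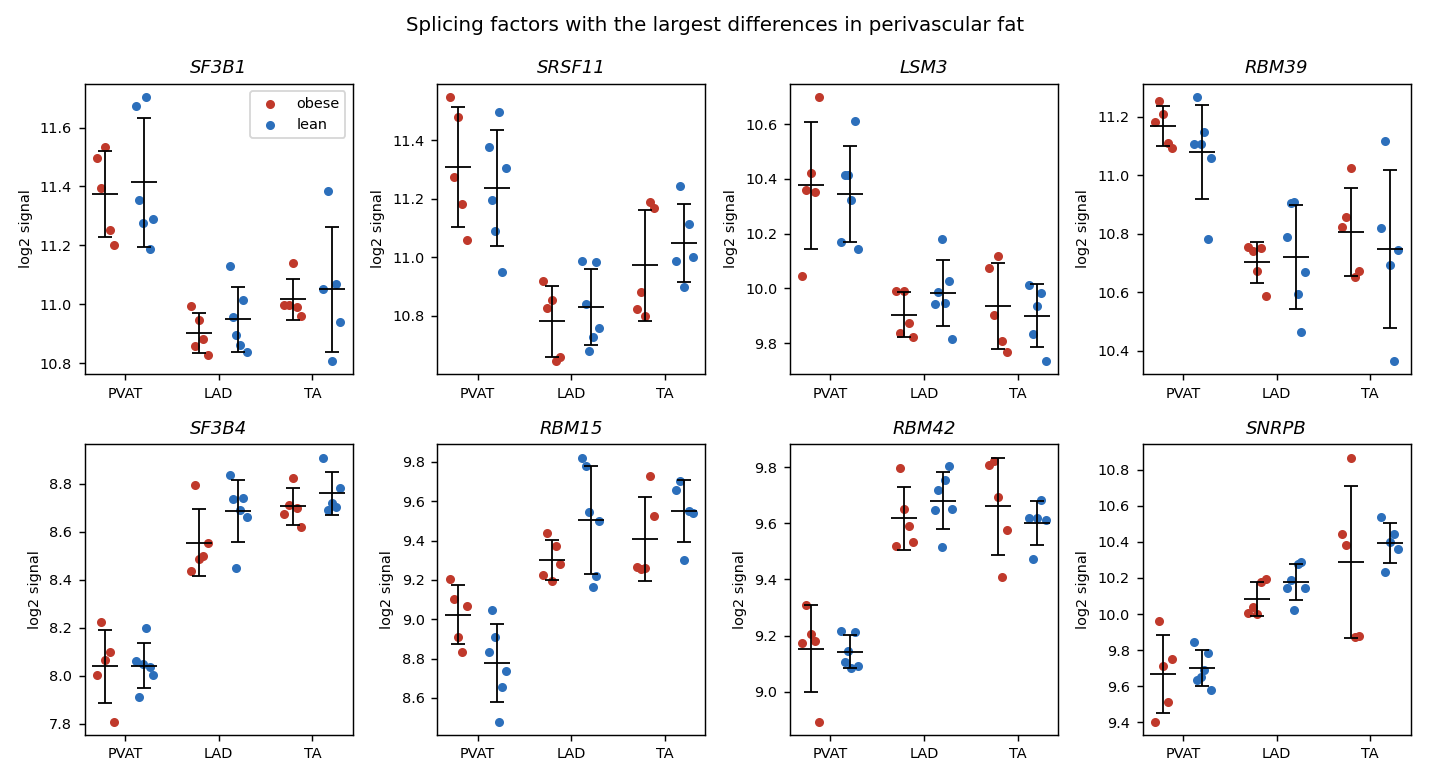
Log2 signal on every array of 4 splicing factors that rose (top row) and 4 that fell (bottom row) in PVAT, with PVAT, LAD and TA from left to right, obese pigs in red to the left of lean pigs in blue, and bars for the mean and SD of each group. PVAT values of SF3B4 and RBM42 lie below every arterial value, and those of SF3B1 lie above every LAD value.

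Against the aorta, PVAT differed in 44 of 88 splicing factors (50%), against 59.7% of all tested probe sets, with 8 that rose (9.09%, against 26.9%) and 36 that fell (40.9%, against 32.9%). This comparison shares its PVAT arrays with the one against LAD. The median difference was -0.12, beside -0.040 for all tested probe sets. With the cardiomyocyte marker mean as a covariate 25 genes passed, 5 higher and 20 lower in PVAT, and 24 of them were among the 44 with the same sign. Over all tested probe sets 3749 passed with that covariate, beside 5992 without it. Of the cardiomyocyte markers, 10 of 13 rose in PVAT against TA. Of the splicing factor calls, 34 of 41 against LAD and 40 of 44 against TA had the same sign on all 3 sacrifice dates, as did 14 of 15 between the arteries. Of all 88 tested, 52, 54 and 35 did. The calls come from the same pigs, so agreement over dates is no separate test. All pigs had the same sign in 19 of 41, 20 of 44 and 6 of 15 calls. Of the 10, 11 and 3 called genes with several tested probe sets, 10, 10 and 3 had all signs alike. In 4, 5 and 0 of them every probe set passed. These counts by date, pig and probe set were not made over all tested probe sets. They therefore do not set the splicing factors apart from other genes.

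Other splicing genes, from the lists that held no SRSF, SNRP, HNRNP, SF3, PRPF, LSM, U2AF or RBM symbol, included larger differences. Of the 119 tested, 6 rose and 12 fell in LAD against TA (5.04% and 10.1%, beside 14.4% and 10.1% of all tested probe sets). In PVAT against LAD, 23 rose and 34 fell (19.3% and 28.6%, beside 24.2% and 32.4%), and in PVAT against TA, 19 rose and 41 fell (16% and 34.5%, beside 26.9% and 32.9%). CELF2, a regulator of muscle exons, fell in LAD against TA, with a difference of -0.85 (SE 0.19, adjusted p = 0.00104). RBMS1 had the largest rise of the lists in that comparison, 0.49 (SE 0.068, adjusted p = 1.89e-06). RBPMS, a smooth muscle splicing regulator, fell in PVAT against LAD, with a difference of -1.15 (SE 0.16, adjusted p = 1.03e-06) and RBFOX2 against TA, with a difference of -0.95 (SE 0.11, adjusted p = 5.23e-08). LUC7L3 and SNRNP70, both of the U1 snRNP, rose in PVAT, against LAD by 0.97 (SE 0.17, adjusted p = 2.12e-05) and 0.75 (SE 0.11, adjusted p = 2.32e-06). The kinase CLK1, which phosphorylates SR proteins, rose by 0.84 (SE 0.15, adjusted p = 3.44e-05). Smooth muscle markers had mean signals of 10.25 to 11.30 in obese and 10.46 to 11.43 in lean PVAT. These lay below the 12.36 to 12.61 of obese and 12.50 to 12.88 of lean LAD. They also lay below the 11.52 to 12.56 of obese and 12.27 to 12.57 of lean TA. The part of smooth muscle markers in the fall of RBPMS and RBFOX2 was not tested.

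RBM20 is the splicing factor of heart muscle that acts on titin. It was below the filter on mean signal but varied most of all 94, with a within-group SD of 1.72. Its log2 signal was 5.26, 8.35, 8.01, 8.37 and 10.36 in obese PVAT and 4.18 to 9.90 (median 8.14) in lean PVAT, 8.59, 8.55, 8.66, 4.78 and 6.54 in obese LAD and 4.06 to 9.59 (median 4.91) in lean LAD, and 6.60, 5.97, 5.18, 4.34 and 5.06 in obese TA and 5.07, 4.46, 5.12, 5.59 and 4.37 in lean TA. Obese and lean ranges overlapped in every tissue, and no aorta exceeded 6.60.

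In PVAT and LAD, RBM20 was high where the cardiomyocyte markers were high. Across the 11 PVAT arrays, Pearson's r with their mean signal was 0.942 (permutation p = 1e-05, the smallest that 100000 resamples can give; adjusted 3e-05 over the 3 tissues) and Spearman's rho 0.973 (permutation p = 2e-05, adjusted 6e-05). Across the 11 LAD arrays, r was 0.937 (permutation p = 2e-05, adjusted 3e-05) and rho 0.927 (permutation p = 6e-05, adjusted 9e-05). Without the 2 arrays farthest from the median of the marker mean, r was 0.973 in PVAT and 0.944 in LAD. Across the 10 TA arrays, where the markers were low, r was -0.262 (permutation p = 0.449, adjusted 0.449) and rho -0.515 (permutation p = 0.134, adjusted 0.134), and r was -0.756 without the 2 farthest arrays. The sacrifice dates hold too few pigs each for a correlation within a date.

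**Figure D5:**
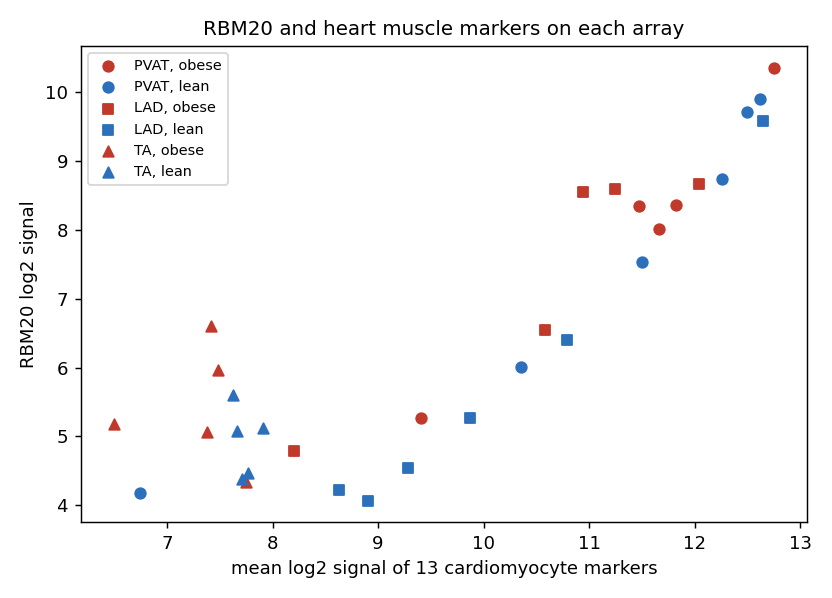
RBM20 log2 signal against the mean log2 signal of 13 cardiomyocyte markers, with 1 point per array, circles for PVAT, squares for LAD and triangles for TA, obese pigs in red and lean pigs in blue. The coronary samples rise along a line up to the PVAT array at 12.75 and 10.36, while the aortas stay at the low end.

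The other genes below the filter were level or scattered. LSM12, PRPF40B and RBM19 had medians between 7.26 and 7.57 in all 3 tissues. RBM4B had 6.43 to 7.29 (median 6.86) in PVAT, 6.01 to 7.46 (median 6.71) in LAD and 5.79 to 7.77 (median 6.37) in TA. RBM47, which in mice and cell lines acts as an RNA editing cofactor, had 6.87 to 7.90 (median 7.18) in PVAT, 6.10 to 8.26 (median 6.56) in LAD and 5.92 to 10.89 (median 6.67) in TA, and its value of 10.89 was that of the obese aorta of pig 57, with all other aortas between 5.92 and 7.66.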

How the data were processed

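The deposited values are log2 signals of 14327 probe sets on 32 arrays, produced by the authors with affy, per the submitters' processing notes; its version and the normalisation method are not given in the sources used here. They were used as deposited. No sequencing depth applies, and the number of arrays limits the precision. Dropping the dimmest 30% of probe sets, by mean signal, left 10029. Differences were tested with limma 3.58.1 (lmFit, eBayes, two-sided) in R 4.3.3, with p-values adjusted by Benjamini and Hochberg's method across those 10029 and a threshold of 0.05. Diet was tested within each tissue. Tissue differences (the mean of the obese and the lean difference) and diet by tissue interactions came from a fit of all 6 groups. The code was tested on simulated data. Arrays of the same pig number come from the same animal, so the numbers pair the samples across tissues; the consensus correlation within a pig was 0.0763, and the pig was a block in an alternative fit. Other alternatives changed the filter, scaling, variance model, covariates, probe set, symbol source or samples. In each comparison the text names up to 12 highest and 12 lowest changed genes, or the 5 largest statistics each way where fewer than 3 passed, together with RBM20, RBM3, SRSF1, U2AF1 and SF3B1; HNRNPA1 and SNRPN were also to be named but carry no such symbol in the deposited annotation, and RBM24 was not measured. Further genes of a described complex were named after their values were seen. Genes below the filter were named to account for them. One gene is counted with the others but its own results are not reported here. Correlations used 100000 permutations. Members and lists were chosen with earlier results of these data known. Symbols that a spreadsheet had turned into calendar entries (28) were set aside.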

Additional observations from a re-analysis of the deposited data

Results flagged for a closer look

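In 30 of 564 combinations of a gene and a group (5.32%), 1 array lay far from the others by Dixon's test at the 95% level; chance flags about 1 in 20. The obese TA array of pig 57 gave 7 of them, among them high SRSF9 (11.27), PRPF4B (10.28), HNRNPH2 (9.95) and SF3B1 (11.14), and low HNRNPA0 (11.29) and RBM12B (8.21). The lean PVAT array of pig 80 also gave 7: low HNRNPH2 (8.65), PRPF4B (9.34), RBM14 (7.81), RBM17 (8.88), RBM25 (8.39) and SRSF1 (9.98), and high RBM34 (9.04).

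The remaining 16 were spread over other arrays. In obese pigs, LSM2 was low in the PVAT of pig 51 (8.93) and RBM12 high in that of pig 55 (8.44). RBM10 was low in the LAD of pig 51 (9.15), PRPF38B high in that of pig 55 (8.36) and SNRPC high in that of pig 81 (9.79), and RBM6 was high in the aorta of pig 85 (8.91). In lean PVAT, SRSF2 was high in pig 48 (11.44), SNRPB2 low in pig 63 (9.25), and in pig 73 HNRNPAB was low (9.86) and LSM5 high (9.53). In lean LAD, HNRNPH1 (11.74) and PRPF38B (8.28) were high in pig 48 and RBM12B high in pig 86 (9.37). In lean TA, HNRNPAB was high in pig 48 (10.65), HNRNPL low in pig 56 (10.42) and SNRPD2 high in pig 86 (12.20).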

How the results depend on the processing

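No splicing factor passed for diet, or for a difference in diet effect between tissues, under any alternative run, with each pig left out included (0 to 0). Over all tested probe sets, 547 passed for diet in TA with the 28S/18S ratio as a covariate and 265 with array weights, and 116 in LAD with array weights. The member median for diet, with each pig left out, ran from -0.0098 to 0.025 in PVAT, -0.083 to -0.068 in LAD and -0.085 to -0.020 in TA, and was 0.0058 in TA without the arrays of a 28S/18S ratio under 0.8, an alternative chosen after seeing the data. For the differences in diet effect it ran from -0.056 to 0.0035 (LAD minus TA), 0.068 to 0.11 (PVAT minus LAD) and 0.021 to 0.076 (PVAT minus TA). Between LAD and TA, 15 genes passed. After centring each array on its median 24 did (0 higher, 24 lower), with array weights 28 (2 and 26) and with the heart muscle marker mean as a covariate 6 (0 and 6). Over all tested probe sets the 2458 calls became 2650, 4139 and 1834 in that order. Leaving out each pig gave 9 (lean pig 86) to 18 splicing factors, with medians of -0.088 to -0.048. Between PVAT and LAD this gave 36 to 43 (medians -0.043 to -0.012), and between PVAT and TA 37 to 45 (medians -0.13 to -0.11). Over all tested probe sets, calls in LAD against TA ran from 2033 (without lean pig 56) to 3034 (without obese pig 57). They ran from 5235 to 6101 in PVAT against LAD and from 5564 to 6492 in PVAT against TA. Both were lowest without lean pig 48 and highest without obese pig 57. With the heart muscle marker mean as a covariate, 25 genes passed between PVAT and TA (5 higher, 20 lower), 24 of them among the 44. Over all tested probe sets 3749 passed there, beside 5992 without the covariate. With the pig as a replicate block, 19, 43 and 46 splicing factors passed in LAD against TA, PVAT against LAD and PVAT against TA. Over all tested probe sets 2640, 5876 and 6154 passed, beside 2458, 5677 and 5992 without the block. No splicing factor passed for diet with the block. Over all tested probe sets 90 passed for diet in LAD, 57 in TA and 2 in PVAT, in a fit of all groups. That fit without the block gave 69, 60 and 2. The pairing changed no other count of splicing factors by more than 1.5 times. SRSF11 lost its call between the arteries under 11 of 26 alternatives and RBM25 between PVAT and LAD under 11 of 27. The number of SR proteins that rose in PVAT against LAD, 2, ran from 0 with the dimmest tested probe sets to 6 with array weights. The cause of these shifts was not tested.

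Signs turned in a few named genes. In 2 the call had passed: SRSF6, PVAT minus LAD, was -0.75 under the platform annotation, and RBM39, PVAT minus TA, was -0.12 with its dimmest tested probe set, both with other probe sets by construction. The rest had not passed. The obese minus lean difference in LAD was -0.0013 for SRSF1 without the arrays of a low 28S/18S ratio, -0.070 for HNRNPA2B1 with the mean of all tested probe sets, -0.14 for HNRNPA2B1 with the dimmest tested probe set and -0.013 for SRSF1 with the dimmest tested probe set. The obese minus lean difference in PVAT was 0.0037 for RBM3 with array weights, 0.0084 for SNRPD3 with the 28S/18S ratio as a covariate, 0.034 for SNRPF without the arrays of a low 28S/18S ratio and 0.021 for SNRPD3 without the arrays of a low 28S/18S ratio. The obese minus lean difference in TA was -0.018 for HNRNPC with the heart muscle marker mean as a covariate and -0.018 for PRPF38B with the dimmest tested probe set. The diet effect of LAD minus TA was -0.016 for HNRNPA3 with array weights, -0.050 for RBM22 with array weights, -0.036 for PRPF39 without pig 57's TA array and -0.0095 for HNRNPA3 with the dimmest tested probe set. The diet effect of PVAT minus LAD was 0.0056 for HNRNPA2B1 after quantile normalisation, 0.012 for SNRPF without the arrays of a low 28S/18S ratio, 0.045 for SNRPD1 without the arrays of a low 28S/18S ratio, 0.063 for HNRNPA2B1 with the mean of all tested probe sets and 0.18 for HNRNPA2B1 with the dimmest tested probe set. Leaving out each pig in turn, the diet effect of LAD minus TA ran from -0.011 to 0.27 for HNRNPA3, -0.013 to 0.16 for SRSF4 and -0.054 to 0.27 for PRPF39. Leaving out each pig in turn, the diet effect of PVAT minus LAD ran from -0.22 to 0.014 for SNRPF and -0.17 to 0.065 for SNRPD1. Leaving out each pig in turn, the diet effect of PVAT minus TA ran from -0.53 to 0.0084 for LSM4.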

Other observations

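Kinases of SR proteins and SR-like proteins, a list of 13 genes of which 11 were tested, had 4 that rose and 1 that fell in PVAT against LAD (36.4% and 9.09%, beside 24.2% and 32.4% of all tested probe sets). Spliceosome activation and catalysis proteins had 2 that rose and 7 that fell of 25 tested in the same comparison (8% and 28%), and other splicing regulators 8 and 14 of 34 (23.5% and 41.2%). In LAD against TA, all 12 tested snRNP assembly genes had a difference below 0 (median -0.070), where 47.4% of all tested probe sets and 69 of the 88 splicing factors did. Of the 12, 2 fell (16.7%, beside 10.1% of all tested probe sets).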
